A study of Homo sapiens with 96 samples.

Results

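The comparison set vehicle cultures of 6 human acute myeloid leukaemia (AML) cell lines at day 4 against vehicle cultures of the same lines at day 2. Its members were the 24 libraries labelled DMSO, 12 at day 4 and 12 at day 2, of 96 libraries in all. Every one of the 24 came from cells given 0.1% DMSO, the solvent of the drugs, so the groups differed by time in culture. The lines were HL60, Kasumi1, MOLM13, MV411, OCIAML3 and THP1, each with 2 replicate libraries a day. The study's other libraries came from the same lines given 1 µM GSK2879552 (labelled 552A), an inhibitor of the histone demethylase LSD1, 100 nM ATRA (all-trans retinoic acid), or their combination (Combo), for 2 or 4 days. RNA was extracted from cultures of established lines, and the labels do not say whether replicates were separate cultures. A p-value within a line therefore measures only how far these libraries spread, and that spread may be technical. It draws on a spread shared by all 12 groups of line and day, not on the replicates of that line alone. Cell density, medium changes and viability are not given in the labels.

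A suspension line kept in a flask multiplies, uses up oxygen, glucose and amino acids, and releases cytokines and metabolites into its own medium. When oxygen is short, the transcription factors HIF1A and EPAS1 switch on genes for angiogenic signals, glucose uptake and the removal of mitochondria. When cells leave the cycle, genes for DNA replication, mitosis and the replication-dependent histones, which package newly made DNA, are transcribed less. Type I interferon acts through its receptor on genes that block viral replication. AML lines are blasts arrested at myeloid stages, and genes for azurophil granule enzymes such as PRTN3 and MPO mark the early, promyelocyte-like stage.

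RUNX1T1, part of the RUNX1-RUNX1T1 fusion, had 112 to 139 CPM (read counts scaled to the effective library size, the usual unit for comparing libraries) in Kasumi1 and at most 0.355 CPM in the other lines. PTPRC (CD45), the pan-leukocyte marker, had 142 to 364 CPM in all 24 libraries, and CD33, a myeloid marker, had 31.6 to 140 CPM. Of markers that blood cells lack, COL1A1 stayed at or below 0.414 CPM and ALB at or below 0.401 CPM, while the epithelial marker EPCAM had 109 to 122 CPM in Kasumi1 at both days and at most 0.114 CPM elsewhere. The summed level of the lymphoid list ran from 15.1 to 92.6 CPM at day 4 and from 21.4 to 106.7 CPM at day 2. That of the megakaryocyte and erythroid list ran from 19.0 to 72.2 CPM at day 4 and from 16 to 81.3 CPM at day 2.

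Libraries of 1 line and day differed in a trend with gene GC content. The trend is given as the slope of a library's log2 level, relative to its line's mean, against gene GC content, per 10% of GC. In MV411 it was 0.159 and -0.574 at day 4, against 0.345 and 0.267 at day 2, so MV411 day 4 replicate 2 stood far below its line. In the other 5 lines the slope ran between -0.046 and 0.397. Averaged over a day's replicates, the 6 lines had a mean slope of 0.142 at day 4 and 0.192 at day 2, a difference of -0.05 ± 0.244 (SD, n = 6 lines; exact sign-flip permutation test, two-sided, p = 0.75). Mitochondrially encoded genes took 6.16% of OCIAML3 day 4 replicate 2 and 3.93% of THP1 day 4 replicate 2, and 0.387 to 2.71% of the others. Their share averaged 1.52% at day 4 and 1.09% at day 2, a difference of 0.434 ± 1.39 (SD, n = 6 lines; exact sign-flip permutation test, two-sided, p = 0.531). The libraries held 15.1 to 29.9 M counts at day 4 and 15.5 to 41.0 M counts at day 2.

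**Figure D1:**
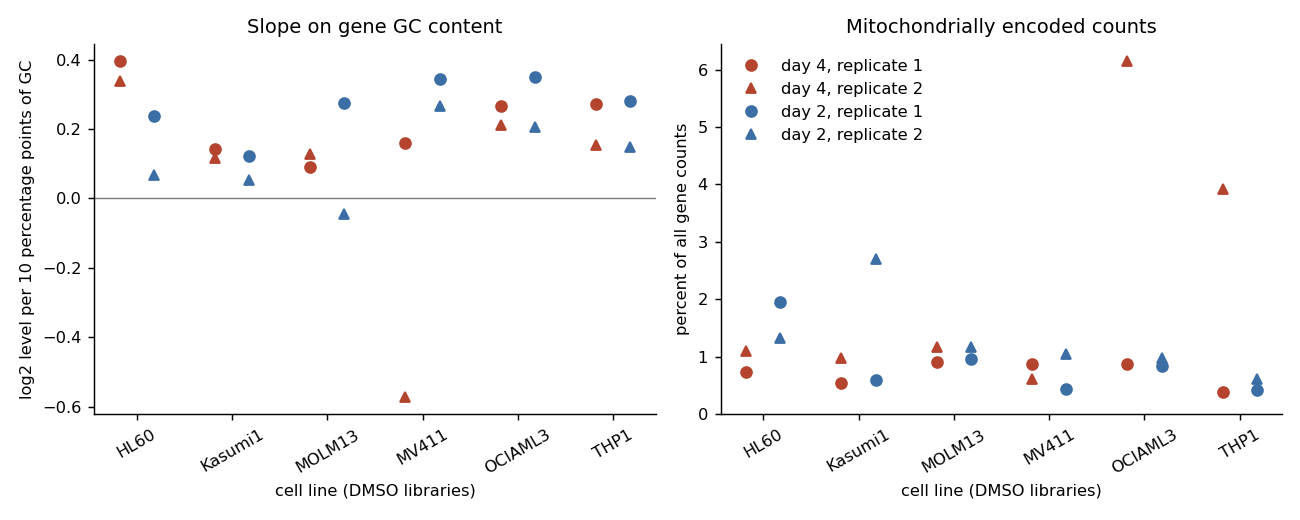
Slope of each vehicle library's log2 level against gene GC content (log2 per 10% GC, left panel) and percent of counts in mitochondrially encoded genes (right panel), by cell line with day 4 left of day 2, 1 point a library. MV411 day 4 replicate 2 has the lowest slope, -0.574, and OCIAML3 day 4 replicate 2 the highest mitochondrial share, 6.16%.

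Over the 6 lines as a set, the hypoxia genes, interferon genes and the costimulatory ligand CD86 stood higher at day 4, and genes for DNA replication, histones and azurophil granules stood lower, though not in every line, and no single gene passed the test. With replicates summed and the line as a block, 0 of 23103 genes (0%) had an adjusted p under 0.05 in edgeR's quasi-likelihood test. At an unadjusted p under 0.05 there were 2277 genes (9.86%), 979 of them higher (4.24%) and 1298 lower (5.62%) at day 4, and the median log2 fold change of all genes was 0.01. DESeq2's Wald test on the same sums called 53 genes, 42 higher and 11 lower. Without THP1, 31 genes were called by edgeR, and without the filter on low counts 449 were. In bulk RNA, fewer cells of a type and less RNA per cell cannot be told apart.

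The genes named here are the 10 with the smallest p among those whose 6 lines all moved 1 way, so the agreement of the lines was set by that choice and is no result. CD86 (chr3:122055366-122121139, GRCh38), a costimulatory ligand of T cells, had 0.119, 2.68 and 33.0 CPM at day 4 (lowest, median and highest library) and 0.144, 1.51 and 15.7 CPM at day 2. The ranges of the days overlapped. Its log2 fold change was 1.07 ± 0.19 (SE, adjusted p = 0.101), with lines between 0.27 and 2.13. BNIP3L, a receptor that marks mitochondria for removal and a hypoxia target, had 39.7, 107 and 308 CPM at day 4 and 32.9, 71.5 and 139 CPM at day 2. Its log2 fold change was 0.58 ± 0.11 (SE, adjusted p = 0.101), with lines between 0.47 and 1.00. FTH1 (chr11:61959718-61967660), the ferritin heavy chain that stores iron, had 15.8, 48.5 and 91.9 CPM at day 4 and 14.1, 26.4 and 53.7 CPM at day 2. It differed by 0.75 ± 0.16 on the log2 scale (SE, adjusted p = 0.166), although reads of its many pseudogenes could be split by the counting.

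DPEP2, a dipeptidase that acts on leukotrienes, and CFAP70, a protein of cilia, had log2 fold changes of 1.03 ± 0.20 and 1.03 ± 0.21 (SE, both adjusted p = 0.16). CCL2, a chemokine that draws monocytes, had 0.86 ± 0.18 and FCGR2B, the inhibitory Fc receptor, had 1.36 ± 0.30 (SE, both adjusted p = 0.166). FCGR2B shares near-identical sequence with FCGR2C, so its counts are uncertain. All 4 were higher at day 4.

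Of the 10 genes named, 3 were lower at day 4. PRTN3 (chr19:840960-848175), the azurophil protease proteinase 3, had 4.92, 159 and 603 CPM at day 4 and 8.17, 314 and 876 CPM at day 2. Its log2 fold change was -0.89 ± 0.19 (SE, adjusted p = 0.166), with lines between -1.93 and -0.05. CD38 (chr4:15778275-15853230), an ectoenzyme that consumes NAD and a classical retinoic acid target, had 0.483, 23.6 and 59.1 CPM at day 4 and 0.56, 43.7 and 68.5 CPM at day 2. It differed by -0.64 ± 0.14 on the log2 scale (SE, adjusted p = 0.166). The neuropeptide gene GAL had a log2 fold change of -0.75 ± 0.16 (SE, adjusted p = 0.166). All 10 passed DESeq2's threshold on these sums, with adjusted p-values between 0.000199 and 0.0284. They had been chosen for a small edgeR p on the same sums, so this is no independent support.

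**Figure D2:**
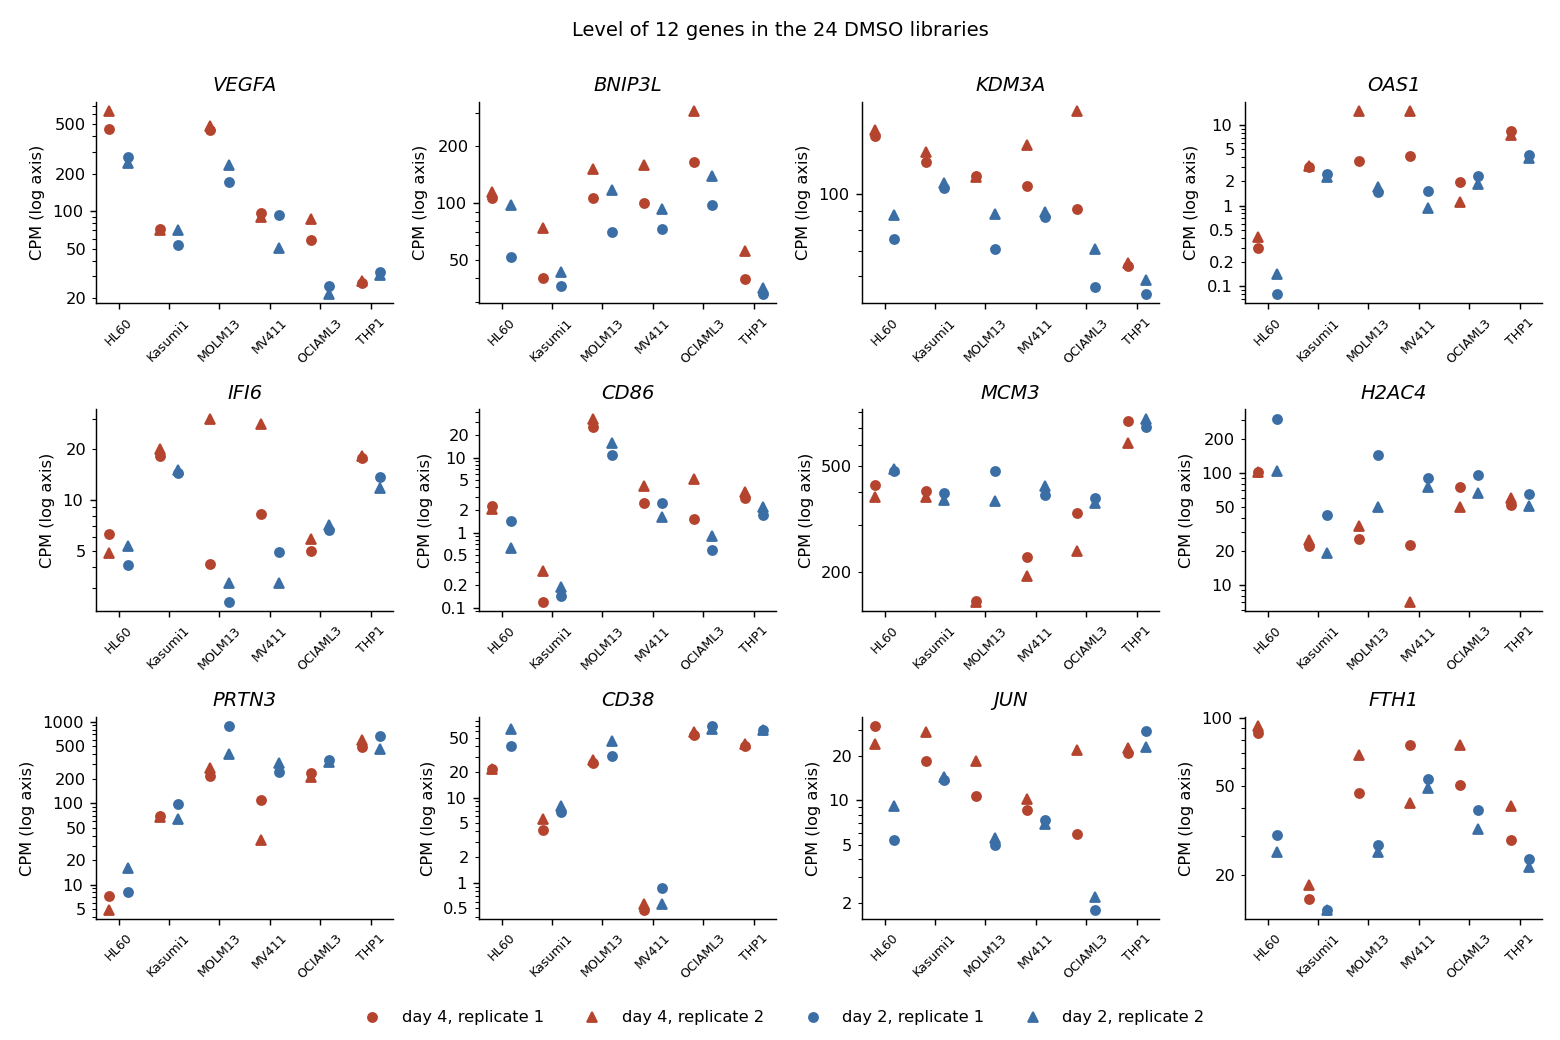
Level of 12 genes in each of the 24 vehicle libraries (CPM, log axis), by cell line with day 4 left of day 2, 1 point a library. VEGFA in HL60, MOLM13 and OCIAML3 and MCM3 in MOLM13 and MV411 show days that do not overlap, while within MOLM13 and MV411, OAS1 and IFI6 are highest in day 4 replicate 2.

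Hypoxia, DNA replication and interferon genes moved with time in some of the lines. The promoters printed below are chosen examples that show the motif which the group's known regulator reads. The promoters are RefSeq sequences of GRCh38.p14, 250 bases before to 50 after the start of transcription, 5′ to 3′ on the gene's strand, with the motif in capitals. A match describes the letters only. The interferon motif, GAAA repeated with any 2 bases between, searched on both strands as were the others, lies in 16 of the 24 interferon promoters with an entry (66.7%), against 996 of all 27305 promoters (3.6%). The hypoxia motif ACGTG lies in 8 of 17 hypoxia promoters (47.1%), against 5900 of all (21.6%). The E2F motif, TTTGGCGC or TTTCGCGC, lies in 10 of 26 S phase promoters (38.5%), against 322 of all (1.2%). Among genes named in this report, OAS1, ADM, KDM3A, SLC2A1, EPAS1, MXI1 and CDC45 had 0 matches to their group's motif. DDIT4, IFI6 and MX1 had at least 1. OAS3 (chr12:112938224-112938523, + strand) and IFI44L (chr1:78620198-78620497, + strand) show 2 interferon motifs each. ANKRD37 (chr4:185396591-185396890, + strand) shows 3 hypoxia matches, since CACGTG counts on both strands, and MCM3 (chr6:52284693-52284992, - strand) shows 1 E2F match that begins 4 bases before the start.
OAS3: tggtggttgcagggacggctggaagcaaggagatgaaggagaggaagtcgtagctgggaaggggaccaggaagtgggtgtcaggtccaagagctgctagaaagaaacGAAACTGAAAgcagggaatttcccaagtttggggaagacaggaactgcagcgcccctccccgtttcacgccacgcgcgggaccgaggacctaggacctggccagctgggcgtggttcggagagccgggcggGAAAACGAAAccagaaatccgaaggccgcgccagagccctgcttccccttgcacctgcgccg
IFI44L: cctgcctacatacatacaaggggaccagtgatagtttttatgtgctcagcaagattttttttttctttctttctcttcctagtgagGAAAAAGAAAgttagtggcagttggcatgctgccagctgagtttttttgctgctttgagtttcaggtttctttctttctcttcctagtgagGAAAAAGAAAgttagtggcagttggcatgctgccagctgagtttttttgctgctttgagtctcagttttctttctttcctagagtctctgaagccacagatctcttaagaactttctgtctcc
ANKRD37: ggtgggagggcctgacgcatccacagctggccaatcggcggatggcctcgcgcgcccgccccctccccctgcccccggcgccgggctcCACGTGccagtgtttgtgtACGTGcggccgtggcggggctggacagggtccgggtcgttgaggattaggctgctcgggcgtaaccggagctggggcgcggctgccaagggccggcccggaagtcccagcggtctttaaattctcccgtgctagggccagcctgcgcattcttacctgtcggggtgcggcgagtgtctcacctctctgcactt
MCM3: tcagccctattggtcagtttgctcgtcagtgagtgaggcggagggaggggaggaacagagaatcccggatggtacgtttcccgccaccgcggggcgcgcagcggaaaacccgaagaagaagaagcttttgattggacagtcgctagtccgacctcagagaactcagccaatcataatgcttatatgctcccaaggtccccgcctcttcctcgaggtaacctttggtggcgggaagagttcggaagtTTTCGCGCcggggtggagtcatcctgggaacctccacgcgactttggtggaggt

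Hypoxia genes stood higher at day 4 in most lines. Of 21 genes of the list tested across lines, 14 were higher at an unadjusted p under 0.05 and 0 were lower, beside 4.24% and 5.62% of all genes. All 21 had a positive log2 fold change, with a median of 0.52 against 0.01 over all genes. The median within a line was 1.03 in OCIAML3, 0.77 in HL60, 0.48 in MV411, 0.38 in MOLM13, 0.31 in Kasumi1 and 0.05 in THP1. Within single lines, each fitted on the 24 libraries with 12 groups, HL60 called 6 of them higher, OCIAML3 4, MOLM13 2, and MV411, Kasumi1 and THP1 0. The background of genes called higher was 2.37% in HL60, 0.0788% in OCIAML3, 2.58% in MOLM13, 2.79% in MV411, and 0% in Kasumi1 and THP1.

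VEGFA (chr6:43770184-43786487), the main angiogenic ligand, had 460 and 636 CPM in HL60 at day 4, against 272 and 245 CPM at day 2. In MOLM13 it had 448 and 483 CPM at day 4, against 171 and 235 CPM at day 2. OCIAML3 had 58.5 and 86.5 CPM at day 4, against 25 and 21.5 CPM at day 2. VEGFA rose in all 3 lines, by log2 fold changes of 1.08 ± 0.24 in HL60 (SE, adjusted p = 0.0151), 1.20 ± 0.24 in MOLM13 (SE, adjusted p = 0.00329) and 1.64 ± 0.24 in OCIAML3 (SE, adjusted p = 0.0142). Each call depended on single libraries. It was lost in HL60 without day 4 replicate 2 or either day 2 library (adjusted p = 0.0853 to 0.198), in MOLM13 without day 2 replicate 1 (0.0935), and in OCIAML3 without day 4 replicate 2 or either day 2 library (0.13 to 0.486). THP1 had 26.3 and 27.4 CPM at day 4 against 32.2 and 30.5 CPM at day 2 (log2 -0.22 ± 0.24, SE, adjusted p = 1).

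ADM, which encodes the vasodilator peptide adrenomedullin, had 11.6 and 7.73 CPM in HL60 at day 4, against 0.159 and 0.521 CPM at day 2 (log2 4.86 ± 0.76, SE, adjusted p = 0.0019). In OCIAML3 it had 0.556 and 5.92 CPM at day 4, against 0 and 0.0225 CPM at day 2 (adjusted p = 0.0142). ANKRD37, an ankyrin repeat protein whose promoter is printed above, rose in HL60 to 6.11 and 4.69 CPM at day 4, against 1.55 and 1.14 CPM at day 2 (log2 2.00 ± 0.37, SE, adjusted p = 0.00571). KDM3A, a histone demethylase that uses oxygen, rose in HL60 to 144 and 149 CPM, against 75.5 and 87.8 CPM (log2 0.85 ± 0.21, SE, adjusted p = 0.0277). ADM in HL60 kept its call when any 1 library was left out. In OCIAML3 it lost its call without day 4 replicate 2 or either day 2 library (adjusted p = 0.178 to 0.486). In HL60 the call of ANKRD37 was lost without day 4 replicate 1 or day 2 replicate 2 (adjusted p = 0.0527 and 0.067), and that of KDM3A when any 1 of the 4 libraries was left out (0.0877 to 0.187). The other calls were SLC2A1, a glucose transporter, and NDRG1 in HL60, EPAS1 in MOLM13, and MXI1 and DDIT4, an inhibitor of mTORC1, in OCIAML3.

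The summed level of the hypoxia list was 1998 and 2149 CPM in HL60 at day 4, against 1208 and 1349 CPM at day 2. OCIAML3 had 1638 and 3151 CPM at day 4, against 861 and 1250 CPM at day 2, and its higher library was the one with 6.16% mitochondrial counts. Leaving out that library took the OCIAML3 count to 0, and leaving out day 4 replicate 1 took it to 7. Without day 2 replicate 1 or 2 it was 0 or 1. In HL60, leaving out any 1 of the 4 libraries left 2 calls. The 2 calls in MOLM13 were 0 without day 2 replicate 1 and 1 without day 4 replicate 2, and the median there, 0.38, was 0.12 and 0.20. The part of the mitochondrial share in this result was not tested.

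Genes for DNA replication fell in MOLM13 and MV411. Across lines the 30 S phase genes had a median log2 fold change of -0.43. Of these, 27 were lower at an unadjusted p under 0.05 and 0 higher, beside 5.62% and 4.24% of all genes. Without MOLM13 the count was 15, beside 2.28% of all genes lower without that line. MOLM13 called 27 of the 30 lower, where 6.37% of all genes were called lower, and MV411 called 19, where 2.88% were. The other 4 lines called 0 S phase genes lower, where 1.44% of all genes were called lower in HL60, 0.0139% in OCIAML3, and 0% in Kasumi1 and THP1.

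MCM3, a subunit of the replicative helicase, had 155 and 154 CPM in MOLM13 at day 4, against 479 and 369 CPM at day 2. In MV411 it had 228 and 193 CPM at day 4, against 390 and 420 CPM at day 2. It fell by 1.45 on the log2 scale in MOLM13 (SE 0.16, adjusted p = 2.65e-05) and by 0.95 in MV411 (adjusted p = 0.00691). MCM3 kept its call in MOLM13 when any 1 library was left out and lost it in MV411 without day 4 replicate 2 (adjusted p = 0.136) or day 2 replicate 2 (0.0834). CDC45, which joins that helicase, had 26.7 and 29.4 CPM in MOLM13 at day 4, against 96.5 and 66.4 CPM at day 2 (adjusted p = 4.69e-05). The summed level of the S phase list was 2190 and 2138 CPM in MOLM13 at day 4, against 6488 and 4672 CPM at day 2. MV411 had 4100 and 3596 CPM at day 4, against 7037 and 7198 CPM at day 2.

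Mitosis genes fell in MOLM13. There 25 of 30 were called lower, where 6.37% of all genes were, against 4 in MV411, where 2.88% were. In MOLM13 CCNB1, the cyclin of mitotic entry, had 46.9 and 60.8 CPM at day 4 against 174 and 142 CPM at day 2 (log2 -1.56 ± 0.18, SE, adjusted p = 4.84e-05). Across lines 21 of 30 were lower at an unadjusted p under 0.05, where 5.62% of all genes were. Without MOLM13 1 was, where 2.28% of all genes were. Without HL60 13 were, beside 4.98% of all genes lower without that line. STMN1, which destabilises microtubules, had 106 and 115 CPM in MOLM13 at day 4, against 380 and 316 CPM at day 2.

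In MOLM13 the S phase count was 23 to 28 and the mitosis count 17 to 25 when 1 of the 4 libraries was left out. In MV411 the S phase median was -0.69 without day 4 replicate 2, the library with the GC slope of -0.574, and -0.85 without day 4 replicate 1. It was -0.71 without day 2 replicate 2 and -0.86 without day 2 replicate 1. MV411 lost its S phase calls without day 4 replicate 2 and held fewer without either day 2 library. Its mitosis count was 0 without either replicate 2. After every library was corrected for its trend with GC content and length, MV411 called 9 mitosis genes and the list's median was -0.45, against 4 calls and -0.25 without the correction. Over all 21576 genes, MV411 called 457 lower with the correction and 621 without it. CDC20, the activator of the anaphase-promoting complex, differed in MV411 by -0.66 on the log2 scale with the correction (adjusted p = 0.0209) and by -1.19 without it (SE 0.22, adjusted p = 0.0111). Without the correction, it lost its call when either replicate 2 was left out (adjusted p = 0.145 and 0.215).

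Replication-dependent histone genes fell in MV411. Of 19 tested, MV411 called 17 lower, where 2.88% of all genes were called lower, and MOLM13 3, where 6.37% were. The median log2 fold change in MV411 was -1.7. H2AC4 (a histone H2A gene) had 22.8 and 7.07 CPM in MV411 at day 4, against 91.1 and 75.2 CPM at day 2 (log2 -2.48, adjusted p = 0.0182), and its adjusted p was 0.301 without day 4 replicate 2, 0.1 without day 2 replicate 2 and 0.0552 without day 2 replicate 1. The list summed to 3139 and 1492 CPM in MV411 at day 4, against 7538 and 6538 CPM at day 2. Without day 4 replicate 2 the list held 1 call and its median was -1.27, without day 2 replicate 2 it held 2 calls, and without day 2 replicate 1 10. The 3 calls in MOLM13 were lost without either replicate 1 and became fewer without day 4 replicate 2. They became more without day 2 replicate 2, where calls over all genes rose as well. Histone genes are near copies of each other, and reads may be split between them.

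Interferon genes rose in MOLM13 and MV411, with the highest levels in 1 library of each. Across lines the 32 tested had a median log2 fold change of 0.39. Of these, 15 were higher at an unadjusted p under 0.05 and 0 lower, beside 4.24% and 5.62% of all genes. Without MOLM13 6 were, beside 3.38% of all genes higher without that line, and without MV411 7 were, beside 4.19%. Of the 31 tested within lines, MOLM13 called 11 higher, where 2.58% of all genes were called higher, and MV411 11, where 2.79% were. HL60 called 1, near its background of 2.37%, and Kasumi1, OCIAML3 and THP1 called 0.

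OAS3 and OAS1 make 2′-5′-oligoadenylate, which activates an RNase against viral RNA. OAS3 had 2.25 and 11.7 CPM in MOLM13 at day 4, against 0.376 and 0.425 CPM at day 2 (log2 4.11 ± 0.68, SE, adjusted p = 0.000956). OAS1 had 3.57 and 14.8 CPM in MOLM13 at day 4, against 1.5 and 1.7 CPM at day 2 (log2 2.51 ± 0.56, SE, adjusted p = 0.00766). In MV411 OAS1 had 4.10 and 15 CPM at day 4, against 1.51 and 0.948 CPM at day 2 (log2 2.96, adjusted p = 0.0121). Both day 4 libraries were above both day 2 libraries each time, which the rule for naming these genes required and so is no result. Replicate 2 was the higher one.

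IFI44L, an interferon-induced gene whose promoter is printed above, had 1.59 and 10.4 CPM in MOLM13 at day 4, against 0.094 and 0.182 CPM at day 2 (adjusted p = 0.0111). In MV411 it had 1.01 and 12.7 CPM at day 4, against 0.101 and 0.0431 CPM at day 2 (adjusted p = 0.0161). MX1, a GTPase that traps viruses, had 4.18 and 17.8 CPM in MV411 at day 4, against 1.67 and 1.12 CPM at day 2 (log2 2.99, adjusted p = 0.0166). IFI6 had 4.18 and 30.1 CPM in MOLM13 at day 4, against 2.49 and 3.22 CPM at day 2 (log2 2.59, adjusted p = 0.0108). In each of these day 4 replicate 2 was the highest of the 4 libraries.

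The interferon list summed to 469 and 859 CPM in MOLM13 at day 4, against 445 and 400 CPM at day 2. MV411 had 730 and 903 CPM at day 4, against 612 and 537 CPM at day 2. Without MOLM13 day 4 replicate 2, the list's median log2 fold change in MOLM13 was 0.10, against 1.35 with it. The median there was 1.51 without day 2 replicate 1, 1.29 without day 2 replicate 2 and 1.83 without day 4 replicate 1. Without MV411 day 4 replicate 2, the MV411 count was 0 and its median 0.56, against 1.03 with it. The list's median in MV411 was 1.08 without day 2 replicate 2, 1.06 without day 2 replicate 1 and 1.53 without day 4 replicate 1. The MV411 calls were also lost without day 2 replicate 2, and were fewer without day 2 replicate 1. OAS3 in MOLM13 kept its call when any 1 library was left out, and OAS1 and IFI6 lost theirs without day 4 replicate 2 (adjusted p = 0.289 and 0.623) or day 2 replicate 1 (0.116 and 0.155). In MV411, MX1 and OAS1 lost theirs without day 4 replicate 2 (adjusted p = 0.432 and 0.298) or day 2 replicate 2 (0.153 and 0.145). IFI44L lost its call in MOLM13 without day 4 replicate 2 or day 2 replicate 1 (adjusted p = 0.199 and 0.166), and in MV411 without day 4 replicate 2 or either day 2 library (0.0677 to 0.384). With the GC and length correction MOLM13 called 19, where 1489 of all 21576 genes were called higher, and MV411 7, where 289 were. Without the correction those counts over all genes were 556 and 601. IFIT1 in MV411 had an adjusted p of 0.0569 with the correction, against 0.038 without it.

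**Figure D3:**
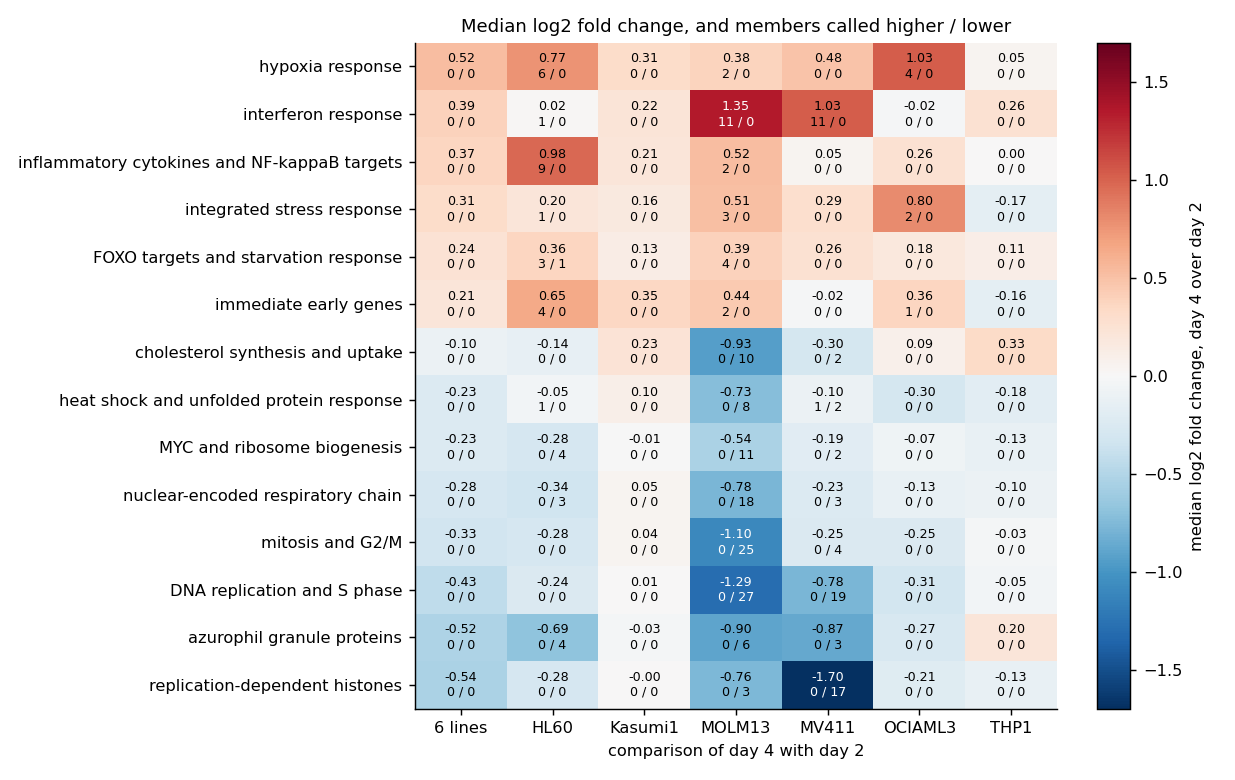
Median log2 fold change, day 4 over day 2, of each gene list (rows) across lines and in each cell line (columns), with the numbers of members called higher and lower printed in the cells. Hypoxia is positive across lines (0.52), S phase is negative (-0.43) with 27 calls in MOLM13 and 19 in MV411, and Kasumi1 and THP1 hold 0 calls in every list.

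Azurophil granule genes fell in HL60, MOLM13 and MV411. Across lines 7 of 10 were lower at an unadjusted p under 0.05, beside 5.62% of all genes. The median log2 fold change across lines was -0.52. The lines were not alike: the list's median was -0.90 in MOLM13, -0.87 in MV411, -0.69 in HL60, -0.27 in OCIAML3, -0.03 in Kasumi1 and 0.20 in THP1, where 7 of the 10 were positive. HL60 called 4 of them lower, where 1.44% of all genes were called lower, MOLM13 6, where 6.37% were, and MV411 3, where 2.88% were. With the GC and length correction the median was -0.42 in MV411, -0.61 in MOLM13, -0.86 in HL60 and -0.35 across lines. MV411 then called 1 lower, where 457 of all 21576 genes were. RNASE2, the eosinophil-derived neurotoxin, had 33.7 and 36.2 CPM in HL60 at day 4, against 77.2 and 143 CPM at day 2 (log2 -1.66 ± 0.26, SE, adjusted p = 0.00207). In MOLM13 it had 112 and 135 CPM at day 4, against 295 and 374 CPM at day 2 (log2 -1.44 ± 0.26, SE, adjusted p = 0.00165). It has a near copy in RNASE3, so reads may be split. MPO, which makes hypochlorous acid in the phagosome, had 105 and 106 CPM in MOLM13 at day 4, against 322 and 210 CPM at day 2 (log2 -1.34 ± 0.25, SE, adjusted p = 0.00218), and lost its call without day 2 replicate 1 (adjusted p = 0.0595).

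Kasumi1, which has the highest MPO level, had 10663 and 11485 CPM at day 4, against 12422 and 10726 CPM at day 2, and its days overlapped. PRTN3 had 108 and 35.1 CPM in MV411 at day 4, against 239 and 307 CPM at day 2 (log2 -1.93, adjusted p = 0.0178). With the GC and length correction that difference was -0.92 (adjusted p = 0.0716), and it lost its call without either replicate 2 (0.145 and 0.273). MV411 lost the calls of this list without either replicate 2 and held fewer without day 2 replicate 1. The HL60 list count was 2 without day 2 replicate 2 or either day 4 library, and the MOLM13 count was 2 without day 2 replicate 1 and 3 without day 4 replicate 2.

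Genes of growth and metabolism fell in MOLM13. Of 23 nuclear-encoded genes of the respiratory chain, 18 were called lower in MOLM13, where 6.37% of all genes were. Across lines 14 were lower at an unadjusted p under 0.05, where 5.62% of all genes were. That cross-line count was 3 without MOLM13, 7 without HL60 and 9 without MV411, beside 4.76% of all genes lower without that line. The MOLM13 count was 6 without day 2 replicate 1 and 8 without day 4 replicate 2. ATP5MC1, a subunit of the ATP synthase rotor, had 36.2 and 31.1 CPM in MOLM13 at day 4, against 93.4 and 68.2 CPM at day 2 (log2 -1.26 ± 0.18, SE, adjusted p = 0.000223). It also fell in HL60, by 0.67 on the log2 scale (SE 0.17, adjusted p = 0.0335), a call lost when any 1 of the 4 libraries was left out (adjusted p = 0.109 to 0.279). Mitochondrially encoded genes of the same chain had 0 of 13 members called in any line.

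Of 25 MYC and ribosome biogenesis genes, MOLM13 called 11 lower, where 6.37% of all genes were, and HL60 4, where 1.44% were. Across lines 13 were lower at an unadjusted p under 0.05, where 5.62% of all genes were. Without MOLM13 6 were lower, where 2.28% of all genes were. Without THP1 8 were lower, beside 4.91% of all genes higher and 4.98% lower without that line. The MOLM13 count was 2 to 4 without any library but day 2 replicate 2, and 13 without that one, and the HL60 count was 0 to 3. MYC itself had a log2 fold change of 0.03 ± 0.11 across lines (SE). Of 24 genes of cholesterol synthesis and uptake, MOLM13 called 10 lower. EBP, a sterol isomerase of that synthesis, had 42.3 and 52.8 CPM there at day 4, against 99 and 85.5 CPM at day 2 (log2 -0.96 ± 0.19, SE, adjusted p = 0.00325), and lost its call without day 4 replicate 1 or day 2 replicate 1 (0.0736 and 0.0557). The MOLM13 count was 3 without day 4 replicate 1 and 4 without day 2 replicate 1. In Kasumi1 all 24 had a positive log2 fold change and in THP1 23 did, with 0 called. Across lines 2 of the 24 were lower at an unadjusted p under 0.05, beside 5.62% of all genes, and 0 were higher. Without MOLM13 0 were lower and 5 higher, with a median of 0.08, and without Kasumi1 6 were lower. Of 21 glycolysis genes, HL60 called SLC2A1, SLC2A3 and ENO2 higher, where 2.37% of all genes were, and MOLM13 called TPI1, PGK1, PGAM1 and PFKP lower, where 6.37% were. The difference between the lines was not tested over this list. Those 3 calls in HL60 were 0 without day 4 replicate 2 or day 2 replicate 1 and 1 without day 4 replicate 1, and the 4 in MOLM13 were 1 without day 2 replicate 1 and 2 without day 4 replicate 1.

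Inflammatory genes rose in HL60. Of 26 inflammatory cytokine and NF-kappaB target genes, HL60 called 9 higher, where 2.37% of all genes were. Across lines 11 were higher at an unadjusted p under 0.05 and 1 lower, beside 4.24% and 5.62% of all genes. Without HL60 7 were higher, beside 4.46% of all genes higher without that line. NFKBIA, the inhibitor that NF-kappaB induces, had 87.2 and 91.7 CPM in HL60 at day 4, against 33.3 and 42.4 CPM at day 2 (log2 1.24 ± 0.19, SE, adjusted p = 0.00143). ICAM1, an adhesion ligand, had 11.5 and 15.6 CPM there at day 4, against 2.58 and 4.59 CPM at day 2 (log2 1.93 ± 0.33, SE, adjusted p = 0.00321), and lost its call without day 4 replicate 2 or day 2 replicate 1 (0.0533 and 0.0687). The HL60 list held 1 call without day 4 replicate 2, 2 without day 2 replicate 1 and 4 without day 4 replicate 1.

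Of 15 genes of the integrated stress response, 7 were higher across lines at an unadjusted p under 0.05 and 0 lower, with a median of 0.31. Within lines the median ran from -0.17 in THP1, where 3 of the 15 were positive, to 0.80 in OCIAML3. Of 18 FOXO and starvation genes 7 were higher across lines at that threshold and 0 lower, with a median of 0.24. Over all genes, 4.24% were higher and 5.62% lower. In the list of 25 immediate early genes 6 were higher and 1 lower, beside 4.24% and 5.62% of all genes, and HL60 called 4 higher, where 2.37% of all genes were. In THP1 7 of the 25 had a positive log2 fold change, with a median of -0.16. Cytosolic ribosomal protein genes had a median of 0.11, with 0 of 28 past an unadjusted p of 0.05 across lines. In HL60 all 28 were positive, with a median of 0.41, and 3 were called higher, where 2.37% of all genes were. The other lines called 0, with medians from -0.04 in MV411 to 0.14 in OCIAML3.

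Line by line, MOLM13 and MV411 held the most calls and Kasumi1 and THP1 none. Of 21576 genes tested, MOLM13 called 1931 (8.95%), 556 higher and 1375 lower at day 4. MV411 called 1222 (5.66%), 601 higher and 621 lower. HL60 called 822 (3.81%), 512 higher and 310 lower. OCIAML3 called 20 (0.0927%), 17 higher and 3 lower. Kasumi1 called 0 (0%; 326 genes at an unadjusted p under 0.05, and 1 call by DESeq2) and THP1 called 0 (0%; 494 genes at an unadjusted p under 0.05, and 0 calls by DESeq2). The order of the first 2 lines turned with the settings: MOLM13 called 2481 and MV411 3108 without the filter on low counts, 2130 and 2762 with the replicate block, and 2664 and 2847 by DESeq2.

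The MV411 count rested on single libraries. It was 4 without day 4 replicate 2, 13 without day 2 replicate 2, 340 without day 2 replicate 1 and 6960 without day 4 replicate 1. With the GC and length correction MV411 called 746 genes, 289 higher and 457 lower. Its called genes also differed in base composition, with a median GC content of 40.6% among those higher and 57.9% among those lower, against 47.9% over all genes tested. In HL60 the order was the other way, 55.1% among those higher and 43.9% among those lower. Leaving out 1 library gave 97 (without day 4 replicate 2) to 256 calls in HL60. In MOLM13 it gave 437 (without day 2 replicate 1) to 3321 calls (without day 2 replicate 2), and in OCIAML3 1 (without day 2 replicate 1) to 58 (without day 4 replicate 1). When each line was fitted on its own 16 libraries, HL60 called 10 genes, MOLM13 479 and MV411 and OCIAML3 0.

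**Figure D4:**
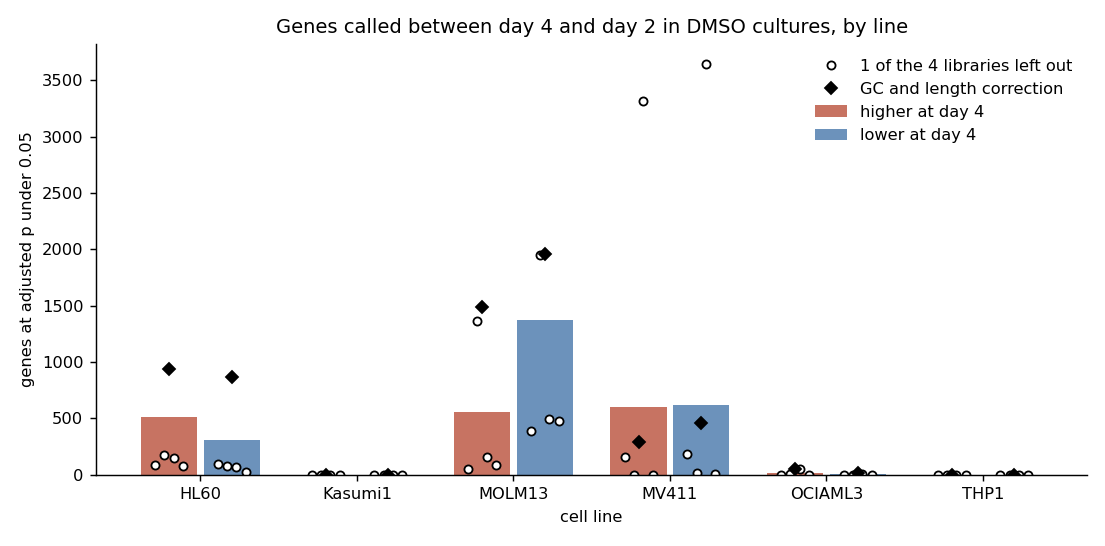
Number of genes called higher and lower at day 4 in each cell line (bars, adjusted p under 0.05, edgeR), with open circles for fits that leave out 1 library and diamonds for the GC and length correction. MOLM13 has 1375 lower and 556 higher calls, and the open circles of MV411 run from 0 to 3318 for higher and from 4 to 3642 for lower.

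In HL60 the named gene with the largest rise was HSPA6, a strictly stress-inducible chaperone with a near copy in HSPA7, which had 21.7 and 11.5 CPM at day 4 against 0.238 and 0.379 CPM at day 2 (log2 5.75 ± 0.68, SE, adjusted p = 0.000243). EMP1, a membrane protein of cell junctions, had 15.5 and 20.2 CPM at day 4, against 0.873 and 1.23 CPM at day 2 (log2 4.09, adjusted p = 0.00115). SGK1, a kinase induced by serum and glucocorticoids, had 17.8 and 18.8 CPM at day 4, against 1.27 and 1.85 CPM at day 2 (log2 3.56 ± 0.65, SE, adjusted p = 0.00511), and lost its call without day 2 replicate 1 (adjusted p = 0.0783). FTH1 rose there too, to 86.0 and 91.9 CPM at day 4, against 30.3 and 25.4 CPM at day 2 (log2 1.67, adjusted p = 0.00143).

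Of 9 genes of the mast cell, basophil and eosinophil list, 2 fell in HL60, where 1.44% of all genes were called lower. PRG2, the eosinophil major basic protein, had 64.4 and 36 CPM at day 4, against 217 and 334 CPM at day 2 (log2 -2.45 ± 0.33, SE, adjusted p = 0.000847). IL1RL1, the receptor of interleukin 33, had 2.98 and 2.90 CPM at day 4, against 15 and 19.9 CPM at day 2 (log2 -2.57 ± 0.36, SE, adjusted p = 0.0024). The mast cell, basophil and eosinophil list summed to 68.4 and 40.2 CPM in HL60 at day 4, against 233 and 356 CPM at day 2. CD38 fell in HL60 to 21.6 and 21.4 CPM, against 40.7 and 63.9 CPM (log2 -1.28 ± 0.21, SE, adjusted p = 0.00259), and its adjusted p was 0.0504 without day 4 replicate 2.

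In MOLM13 the named gene with the smallest adjusted p was MS4A6A, a membrane protein of monocytes and macrophages, which had 13.5 and 16.7 CPM at day 4 against 78.4 and 52.8 CPM at day 2 (log2 -2.12 ± 0.22, SE, adjusted p = 2.03e-05). MS4A6A kept its call when any 1 library was left out, as did DHRS9, a retinol dehydrogenase, which fell by 1.92 on the log2 scale. IGLL1, a chain of the pre-B cell receptor that shares sequence with immunoglobulin lambda genes, fell in 3 lines. It had 1.76 and 1.15 CPM in MOLM13 at day 4, against 10.2 and 4.55 CPM at day 2 (log2 -2.35, adjusted p = 0.00185). In MV411 it had 4.87 and 3.53 CPM at day 4, against 27.2 and 40.7 CPM at day 2 (log2 -3.02 ± 0.38, SE, adjusted p = 0.00272), and in HL60 it fell by 2.23 on the log2 scale. Each of these lost its call without 1 library: day 2 replicate 1 in MOLM13 (adjusted p = 0.0655), day 4 replicate 2 in MV411 (adjusted p = 0.0521), and day 4 replicate 2 or day 2 replicate 2 in HL60 (adjusted p = 0.128 and 0.0764).

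In OCIAML3 STC2, a secreted glycoprotein of the stress response, rose to 12.7 and 15.3 CPM at day 4, against 2.45 and 2.14 CPM at day 2 (log2 2.61 ± 0.29, SE, adjusted p = 0.000637), and kept its call without any 1 library. JUN, a subunit of the transcription factor AP-1, had 5.89 and 22.0 CPM at day 4, against 1.80 and 2.19 CPM at day 2 (log2 2.79, adjusted p = 0.0143). MT2A, a metallothionein that binds zinc, had 49.5 and 120 CPM at day 4, against 11.2 and 13.4 CPM at day 2 (log2 2.78, adjusted p = 0.0285). JUN and MT2A were each highest in day 4 replicate 2, and without it their adjusted p-values were 0.624 and 0.819. Without either day 2 library they were between 0.176 and 0.396.

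Calls shared between lines were a part of each list. MOLM13 and MV411 shared 197 genes called lower, 14.3% of the MOLM13 calls and 31.7% of the MV411 calls, and 65 called higher (11.7% and 10.8%). HL60 and MOLM13 shared 78 called higher (15.2% and 14% of their calls) and 97 called lower (31.3% and 7.05%). HL60 and MV411 shared 27 called higher (5.27% and 4.49%) and 10 called lower (3.23% and 1.61%). Of all genes, 2.37% were called higher and 1.44% lower in HL60, 2.58% and 6.37% in MOLM13, and 2.79% and 2.88% in MV411, so that the share of HL60's lower calls found in MV411 was near the background. In all 3 lines 9 genes were called higher, among them IFI16, P2RX7 and PTGS1, and 6 lower, among them CTSG, IGLL1 and RANBP1, which were named after these counts were seen.

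The day difference itself varied between lines for 198 genes (0.918% of 21576, edgeR F test of the line-by-day terms, adjusted p under 0.05), and for 14 to 5448 genes when 1 library was left out. The 8 with the smallest p included 4 that fell in MOLM13. BMP8B, a bone morphogenetic protein, had 27.9 and 23.8 CPM in MOLM13 at day 4, against 95.6 and 92.3 CPM at day 2, while THP1 had 492 and 534 CPM at day 4, against 553 and 531 CPM at day 2 (adjusted p of the line difference 0.00322). NCAPH, a subunit of condensin, ORC1, the first subunit of the origin recognition complex, and STMN1 each had an adjusted p of 0.00702, with MOLM13 at -1.68, -1.54 and -1.65 on the log2 scale.

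The other 4 rose in HL60 or MOLM13. ABAT, which breaks down GABA, had 13.5 and 16 CPM in HL60 at day 4, against 3.05 and 2.60 CPM at day 2 (line difference adjusted p = 0.00508). FADS3, a fatty acid desaturase, and GPRC5C, an orphan receptor of the retinoic acid-inducible family, had log2 fold changes of 2.75 and 2.82 in HL60 (line difference adjusted p = 0.00702 and 0.0096). SIPA1L2 rose in MOLM13, to 12.6 and 11 CPM at day 4 against 4.28 and 3.82 CPM at day 2, while THP1 had 9.98 and 8.99 CPM at day 4 against 15.9 and 17.5 CPM at day 2 (line difference adjusted p = 0.0096).

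The drug arms were set beside the vehicle to see whether the day difference itself changed with treatment. All 3 arms were compared with the same DMSO sums. The difference of the day effects, arm minus DMSO, passed an adjusted p under 0.05 for 0 of 26382 genes in each of 552A, ATRA and Combo (0%; edgeR), with 408, 1250 and 1181 genes at an unadjusted p under 0.05. Within an arm, day 4 against day 2 called 0 genes in 552A (0%), 28 in ATRA (0.106%), 26 higher (0.0986%) and 2 lower (0.00758%), and 45 in Combo (0.171%), 19 higher (0.0720%) and 26 lower (0.0986%). DESeq2 was not run on these arm fits.

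In the fit of all 48 sums, CD86 had log2 day differences of 0.36 in 552A, 1.74 in ATRA (adjusted p = 0.057), 0.54 in Combo and 1.10 in DMSO. PRG2 had -0.92 in 552A, -2.98 in ATRA (adjusted p = 0.036), -4.14 in Combo (adjusted p = 0.0115) and -1.35 ± 0.45 in DMSO (SE, adjusted p = 0.609). Its Combo minus DMSO difference was -2.79 ± 0.85 (SE, adjusted p = 1), and its ATRA minus DMSO difference was -1.63 ± 0.70 (SE, adjusted p = 0.936). CD38 had -0.37 in 552A, -0.10 in ATRA, -0.05 in Combo and -0.61 in DMSO. KDM1A, which encodes the target of GSK2879552, had -0.13 ± 0.11 in DMSO (SE).

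**Figure D5:**
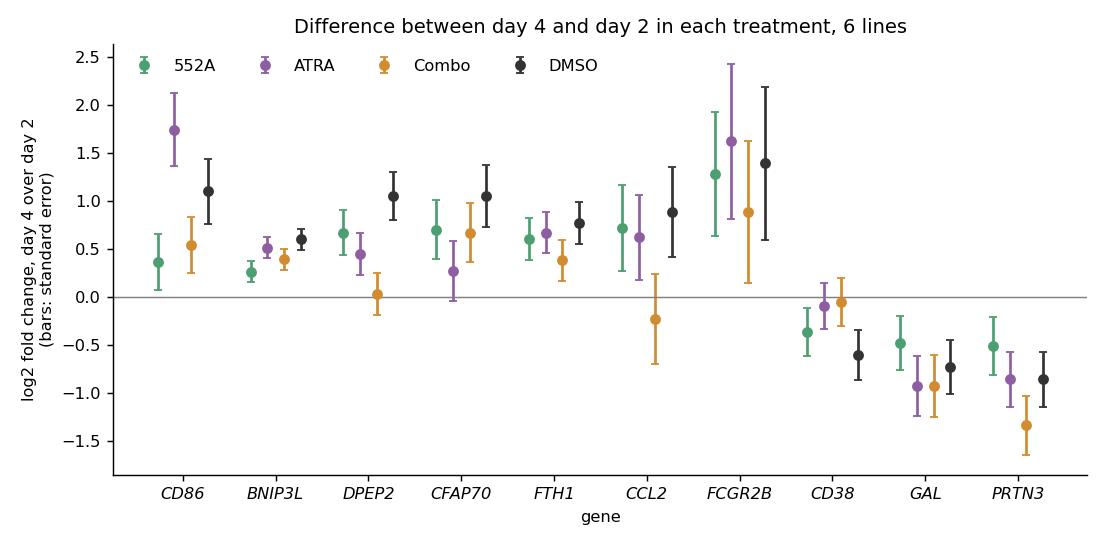
Log2 fold change of day 4 over day 2 across the 6 lines (± SE) for the 10 genes named across lines, with the arms in the order 552A, ATRA, Combo and DMSO. CD86 is 1.74 in ATRA and 1.10 in DMSO, and no arm differed from DMSO at an adjusted p under 0.05.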

How the data were processed

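Total RNA libraries (TruSeq Stranded Total RNA, per the labels' protocols) of 6 AML lines were analysed from the deposited table of whole-number read counts per gene, which the authors had not normalised. The submitters' processing notes name Trimmomatic 0.36, STAR 2.4.2a, HTSeq 0.6.0 and GRCh38. No annotation release and no strand setting is given in the sources used here, and reads of overlapping or antisense genes cannot be told apart. Of 60552 gene rows, 56994 matched GENCODE release 29, and the 3508 unmatched rows held 0.0417% of the counts.

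The main test was edgeR 4.0.16's quasi-likelihood F test in R 4.3.3 (TMM, filterByExpr, a prior count of 0.125). Adjusted p-values are edgeR's, after Benjamini-Hochberg over all genes tested, unless DESeq2 1.42.0 is named, and a gene was called at an adjusted p under 0.05. Across lines, the 2 replicates of each line and day were summed and the line was a block, which left 5 residual degrees of freedom. Within lines and for the line-by-day test, the 24 libraries were fitted with 12 groups, which left 12. The arms were tested on the 48 sums of all treatments and days. Fold changes are day 4 over day 2, and the standard error (SE) is the absolute log2 fold change over the root of F. CPM are read counts relative to the TMM-scaled library size in the 24-library fit, and say nothing of a gene's length. The GC and length correction subtracted, per column, natural splines of 5 degrees of freedom each. Scripts were tested on simulated data.

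Genes named across lines were the 10 with the smallest p among those whose mean log2 CPM reached 1 and whose 6 lines all moved 1 way. Within a line they were the 5 largest called changes in each direction, among genes whose mean log2 CPM in that line reached 1. Their replicates also had to be free of overlap between days, so that separation was set by the choice and is no result. For the line-by-day test they were the 8 with the smallest p, and up to 4 members of each list were named by p. VEGFA, ANKRD37, NFKBIA, ICAM1 and some other list members called in a line were named outside these rules. They therefore do not stand for their lists. Members, rules and the 43 gene lists (814 of 815 entries matched) were chosen with earlier results of these data known, so they are not independent evidence. Alternatives were other size factors, no filter on low counts, unsummed libraries, the replicate block, the GC and length correction, each library or line left out, the 16 libraries of a line and DESeq2. Totals of 15.1 to 41.0 M counts a library limit what low genes can show. Some genes and 1 list are not reported here.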

Additional observations from a re-analysis of the deposited data

Results flagged for a closer look

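Outliers were looked for among the 6 lines, where chance flags about 1 group in 20. MV411 had a day 4 minus day 2 difference in GC slope of -0.51, while the other lines lay between -0.04 and 0.21. For BNIP3L, OCIAML3 had a log2 fold change of 1.00, while the other lines lay between 0.47 and 0.64. For CD38, HL60 had a log2 fold change of -1.28, while the other lines lay between -0.60 and -0.22.

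The day difference varied between lines for 198 genes by edgeR's F test. The 8 with the smallest p had adjusted p-values of 0.00322 (BMP8B, lines from -1.86 to 0.22 on the log2 scale), 0.00508 (ABAT, -0.07 to 2.38), 0.00702 (NCAPH, -1.68 to 0.09; ORC1, -1.54 to 0.08; STMN1, -1.65 to 0.03; FADS3, -0.09 to 2.75) and 0.0096 (GPRC5C, -0.18 to 2.82; SIPA1L2, -0.81 to 1.54).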

How the results depend on the processing

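Across lines, 449 genes were called without the low-count filter, 594 with unsummed libraries, 54 with the replicate block, 1600 with the block and the GC and length correction, and 53 by DESeq2. Leaving out 1 line or library gave 0 to 31.

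Within lines, no filter gave 1385 calls in HL60, 11 in Kasumi1, 13 in THP1, 160 in OCIAML3, 2481 in MOLM13 and 3108 in MV411. The GC and length correction gave 1808 in HL60, 3448 in MOLM13, 746 in MV411 and 67 in OCIAML3. The replicate block gave 1 in Kasumi1, 2762 in MV411 and 49 in OCIAML3, and with the GC and length correction 1 in Kasumi1 and in THP1, 173 in OCIAML3, 2300 in HL60 and 4010 in MOLM13. DESeq2 gave 1637 in HL60, 1 in Kasumi1, 2847 in MV411 and 73 in OCIAML3. The 16 libraries of a line gave 10 in HL60, 479 in MOLM13, 0 in MV411 and 0 in OCIAML3. Leaving out 1 library gave 97 to 256 in HL60, 437 to 3321 in MOLM13, 4 to 6960 in MV411 and 1 to 58 in OCIAML3. The line-by-day test called 2813 genes without the filter, 874 with the GC and length correction, 1402 with that and the block, and 14 to 5448 when 1 library was left out. Arm minus DMSO called 14 genes in ATRA and 52 in Combo without the filter, and 1 in Combo with the correction. The causes were not tested.

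The replicate numbers were not taken as pairs in the main fits, and the labels do not say whether same-numbered libraries belong together. Correlations of same-numbered deviations were 0.01 (MOLM13), 0.20 (THP1), 0.27 (MV411), 0.38 (HL60), 0.41 (Kasumi1) and 0.50 (OCIAML3). The replicate block, which takes them as pairs, gave the counts above. Leaving out a line gave differences in GC slope of -0.103 to 0.043 (0.043 without MV411), in mitochondrial share of -0.001 to 0.7 (-0.001 without OCIAML3) and in total counts of -1.353 to 0.666 M (0.024 without MOLM13, 0.666 without OCIAML3). Among the 10 genes named across lines and 65 gene and line pairs named within lines, 0 values reversed under these alternatives, 157 lost a call and 52 gained one.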

Other observations

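Of 18 genes of the heat shock and unfolded protein response, MOLM13 called 8 lower at day 4, where 6.37% of all genes were called lower (edgeR's quasi-likelihood test), and the list's median log2 fold change there was -0.73. HSPE1, the co-chaperonin of the mitochondrial matrix, had 35.2 and 36.1 CPM in MOLM13 at day 4, against 104 and 66 CPM at day 2 (log2 -1.26 ± 0.23, SE, adjusted p = 0.00213). CALR, a chaperone of the endoplasmic reticulum, had 415 and 458 CPM at day 4, against 989 and 622 CPM at day 2 (log2 -0.88 ± 0.24, SE, adjusted p = 0.0232). HSPE1 lost its call without day 2 replicate 1 (adjusted p = 0.0742), and CALR without that library or either day 4 library (0.106 to 0.398). For both genes the days did not overlap, and day 2 replicate 1 was the highest library. The count in MOLM13 was 0 without day 2 replicate 1, 2 without day 4 replicate 1 and 3 without day 4 replicate 2. Across lines 7 of the 18 were lower at an unadjusted p under 0.05, where 5.62% of all genes were, and without MOLM13 3 were.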
